A study of Mus musculus with 4 samples.

Results

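Kmt5a, Kmt5b and Kmt5c, the enzymes that methylate lysine K20 of histone H4 (H4K20), were examined for acetylation of histone H3 at K27 (H3K27ac), which is found at promoters and enhancers in use, in mouse neural stem cells. They are 3 of 21631 protein-coding genes on chromosomes 1 to 19 and X. All peaks that overlapped the annotated body of a gene or the 10 kb on either side were taken, which gave 19 of 91639 peaks in the list of Smchd1-deleted cells and 14 of 63698 in the list of Smchd1-control cells. The genes were chosen with these lists known, and were selected on the fold enrichment of Kmt5b, which had the most enriched gene-end peak of both. Its fold enrichment and pileup are therefore given as a description only.

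Kmt5a (also called Setd8 or PR-Set7) adds the first methyl group to H4K20, and Kmt5b and Kmt5c (Suv4-20h1 and Suv4-20h2) add further methyl groups. The monomethyl form accumulates towards mitosis and on the inactive X chromosome, the dimethyl form is read by the DNA damage protein Trp53bp1, and the trimethyl form marks pericentric heterochromatin. In S phase, Kmt5a is degraded by the Cul4-Ddb1 ubiquitin ligase with its adaptor Dtl, which binds the enzyme on chromatin-bound Pcna.

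H3K27ac chromatin immunoprecipitation (ChIP) was done on female Smchd1 del/del neural stem cells, and on cells that had kept a floxed Smchd1 allele as the control. Each ChIP had an input library of whole-cell extract. Smchd1 is a chromatin protein of the inactive X. All cells derived from Smchd1 del/fl embryos (E14.5), with a maternal 129 X carrying an Xist deltaA allele and a paternal Castaneus X. The strain is given as C57BL/6. Deleted cells had received the retrovirus MSCV-Cre-puro, puromycin from 24 h on and 7 days of culture, while control cells were left untransduced, so that deletion, transduction and selection cannot be told apart. The labels conflict in places. The control ChIP is titled fl/fl but has the genotype del/fl, the control input has the genotype del/del, and the antibody field of each ChIP names the trimethyl mark of H3K27. With 1 library per group there was no replicate check, and no p-value is given. All intervals cover counting error only.

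After filtering, 54194233 ChIP tags remained in deleted cells and 42277672 in control cells, 1.28 times as many for deleted cells, and a deeper library lets more weak peaks pass. The part of depth in list-only peaks was not tested. Neural stem cell markers had a peak within 1 kb of an annotated start (a gene-start peak) in both lists at 12 of 14 genes, against 50.4% of all protein-coding genes. The same count was 2 of 8 for neuron, 2 of 6 for astrocyte, 2 of 7 for oligodendrocyte, 1 of 6 for microglia, 2 of 7 for fibroblast, 0 of 5 for endothelial and 0 of 5 for pluripotency markers. Pax6, a transcription factor of forebrain progenitors, was the only stem cell marker with a gene-start peak in neither list. Its body and the 10 kb around it held 4 deleted and 3 control peaks. Msi1 had a gene-start peak among control peaks alone, but no annotated start was used for it, so either of its ends counted as one.

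The promoters below are shown because the acetylated regions of the 3 genes sit on or beside them. Each runs from 250 bases before an annotated start to 50 bases after it (RefSeq, GRCm38.p6, plus strand). All 3 genes matched the promoter table, with 6 starts between them, of which 5 are printed. Capitals mark CCAAT boxes (CCAAT), GC boxes (GGGCGG) and the E2F core (GCGGGAA), each searched on both strands.
Kmt5b second start, chr19:3767639-3767938: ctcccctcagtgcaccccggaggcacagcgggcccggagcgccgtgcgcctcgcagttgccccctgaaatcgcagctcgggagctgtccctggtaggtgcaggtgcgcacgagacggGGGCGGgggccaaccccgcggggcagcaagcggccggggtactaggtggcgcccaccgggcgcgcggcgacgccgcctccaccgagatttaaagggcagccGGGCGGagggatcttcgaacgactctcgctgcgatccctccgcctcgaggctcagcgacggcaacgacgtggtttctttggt
Kmt5b first start, chr19:3767171-3767470: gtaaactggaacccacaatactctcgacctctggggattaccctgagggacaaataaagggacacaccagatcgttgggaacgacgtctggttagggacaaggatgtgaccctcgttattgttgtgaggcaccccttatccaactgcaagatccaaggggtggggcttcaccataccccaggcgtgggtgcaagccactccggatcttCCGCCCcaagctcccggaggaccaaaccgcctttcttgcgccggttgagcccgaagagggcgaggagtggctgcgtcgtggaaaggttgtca
Kmt5c start, chr7:4739877-4740176: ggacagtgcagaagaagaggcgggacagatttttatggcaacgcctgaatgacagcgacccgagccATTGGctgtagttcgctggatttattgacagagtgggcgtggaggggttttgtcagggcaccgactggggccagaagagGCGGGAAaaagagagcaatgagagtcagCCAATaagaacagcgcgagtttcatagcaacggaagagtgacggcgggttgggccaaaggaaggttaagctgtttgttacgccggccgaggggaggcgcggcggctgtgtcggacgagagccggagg
Kmt5a first start, chr5:124439680-124439979: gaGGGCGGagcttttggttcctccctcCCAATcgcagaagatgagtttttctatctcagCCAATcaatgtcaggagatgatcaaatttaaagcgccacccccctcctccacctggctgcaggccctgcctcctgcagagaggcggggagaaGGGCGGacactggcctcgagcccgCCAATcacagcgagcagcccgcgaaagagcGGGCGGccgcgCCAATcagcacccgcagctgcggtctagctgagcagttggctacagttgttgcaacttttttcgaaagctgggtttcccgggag
Kmt5a second start, chr5:124445249-124445548: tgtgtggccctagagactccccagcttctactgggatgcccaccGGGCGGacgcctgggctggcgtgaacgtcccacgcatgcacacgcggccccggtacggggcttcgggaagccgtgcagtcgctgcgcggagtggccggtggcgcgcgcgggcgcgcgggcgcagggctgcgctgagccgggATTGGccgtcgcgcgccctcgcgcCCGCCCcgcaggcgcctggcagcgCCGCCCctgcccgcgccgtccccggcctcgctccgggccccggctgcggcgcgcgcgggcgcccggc
The GC content was 71.3% at the second and 57.3% at the first Kmt5b start, 57.7% at Kmt5c, and 59.7%, 80.3% and 61.7% at the 3 Kmt5a starts, against a median of 56.7% over 21037 promoters. The second Kmt5a start was richer in G and C than 98.8% of these promoters. CpG pairs reached 1.05 of the number expected from base content at the second Kmt5a start, 1.01 at Kmt5c and 0.997 at the second Kmt5b start, but 0.675 at the first Kmt5a start, 0.650 at the first Kmt5b start and 0.321 at the third Kmt5a start, against a median of 0.574. A CCAAT box was found at all 3 Kmt5a starts (4, 1 and 2 matches) and at Kmt5c (2 matches) but at neither Kmt5b start. GC boxes were found at every Kmt5a and Kmt5b start and not at Kmt5c, which held the only E2F core. Of all promoters, 38.5% held a CCAAT box, 46.7% a GC box and 6.01% an E2F core. These are letter matches in a short window and do not show binding.

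Kmt5b carried 1 tall peak at its start and almost nothing else (the map of peaks along the 3 genes). On chromosome 19 the peak ran from 3767037 to 3768730 (1694 bases) in deleted cells and from 3767218 to 3768721 (1504 bases) in control cells, and every base of the control peak lay inside the deleted one. The summits were 128 and 134 bases past the second annotated start, 6 bases apart. Both annotated starts, whose promoters are printed above, lay inside the peak in each culture.
The summit pileup, the number of fragments stacked at the highest point, was 160 in deleted cells (95% Poisson interval 136 to 187) and 128 in control cells (107 to 152). Per 1000000 filtered ChIP tags, called the scaled pileup from here on, this was 2.95 in deleted and 3.03 in control cells. The ratio was 0.975 (0.768 to 1.24). At the lowest local background fold enrichment follows from pileup, so these values restate those by which Kmt5b was chosen. The pileups and their ratio are therefore a description only.

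**Figure D1:**
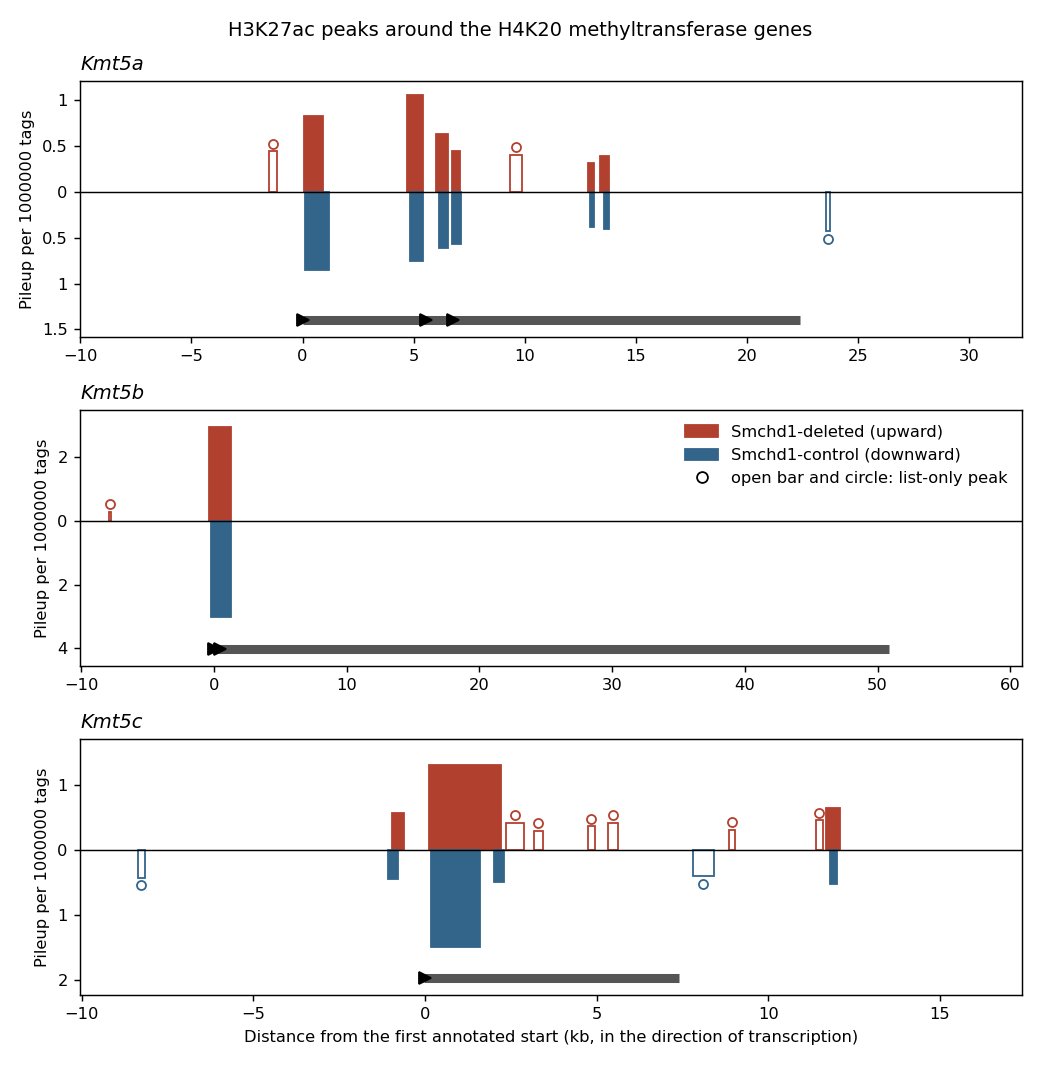
Peaks of Smchd1-deleted cells (upward) and Smchd1-control cells (downward) along Kmt5a, Kmt5b and Kmt5c, with 10 kb on each side. The x axis is the distance from the first annotated start in kb and the height is the summit pileup per 1000000 tags, with its own scale for each gene. Grey bars are gene bodies, arrowheads annotated starts, and open bars with circles peaks in 1 list only. Kmt5b has 1 tall peak at its start (2.95 and 3.03), while Kmt5a and Kmt5c have chains of lower peaks.

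Fold enrichment over the local background, the authors' value by which Kmt5b was picked, was 27.03 in deleted cells against 25.8 in control cells. The runner-up had 24.3 among deleted peaks, and among control peaks it was at Ccng2, a cyclin G gene, with 24.1. By pileup alone the Kmt5b peak ranked 47 among deleted and 66 among control peaks. Since no peak had a higher fold enrichment, the 46 and 65 peaks above it necessarily had a higher local background. Their local background was at least 2.22 and 2.53 times the lowest of the list, and their median fold enrichment was 1.46 and 1.79. Chromosome 9 held 20 of the 46 and 41 of the 65. The local background under the Kmt5b peak was 1.00 times the lowest value in deleted and 1.01 times in control cells. This is not particular to Kmt5b, since 85.4% of deleted and 83.9% of control peaks had the lowest background. That lowest value is a floor shared by most peaks, so it does not give the input measured at a locus. The peak was less exceptional in width, ranking 1452 among deleted peaks (the widest 1.59%) and 1084 among control peaks (the widest 1.70%).

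**Figure D2:**
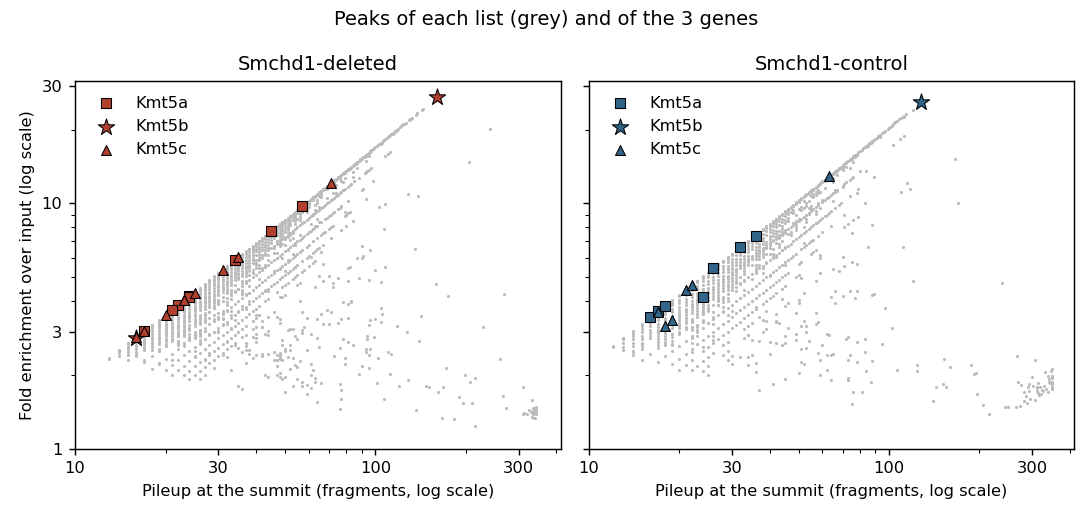
Summit pileup in fragments (x, log scale) against fold enrichment over the local background (y, log scale, labelled over input). Grey points are all peaks on chromosomes 1 to 19 and X, in deleted cells (left) and control cells (right). Stars are Kmt5b, squares Kmt5a and triangles Kmt5c. The Kmt5b start peak (160 and 128 fragments) is at the upper end of the diagonal edge formed by peaks at the lowest local background. Peaks with more fragments lie lower in fold enrichment.

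The rest of the Kmt5b locus had next to no peaks. Its window of 70942 bases held 2 deleted and 1 control peak, which covered 2.65% and 2.12% of it. The only other peak was a weak one of the deleted list before the gene, from 3759519 to 3759703, with 16 fragments and a fold enrichment of 2.83. Outside the window the nearest peaks were 22914 bases before the gene and 14590 bases after it in deleted cells, and 51986 and 15941 bases away in control cells. The lncRNA gene Gm16066, inside Kmt5b on the opposite strand, and the pseudogene Gm19209 after it had no peak in either list.
Among the 100 most enriched gene starts, the median window held 7 deleted and 6 control peaks. As few as at Kmt5b were found in 15 of the 100 windows in deleted cells and 9 in control cells, Kmt5b included. Among those of the 100 whose gene is at least as long as Kmt5b, it was 5 of 31 in deleted and 5 of 35 in control cells. Other strongly enriched starts thus also stood in windows with as few peaks.

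**Figure D3:**
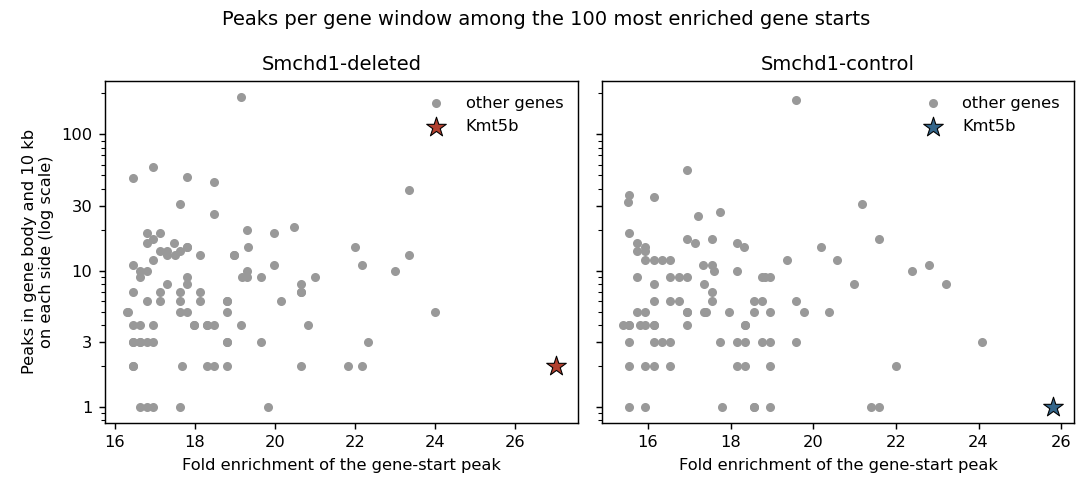
Fold enrichment of the gene-start peak (x) against the number of peaks in the gene body and 10 kb on each side (y, log scale) for the 100 most enriched gene starts in deleted cells (left) and control cells (right). The star is Kmt5b, with 2 peaks in deleted and 1 in control cells, against medians of 7 and 6.

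Kmt5c was second of the 3 in gene-start pileup, though not above Kmt5a beyond counting error in deleted cells. It had a wide peak just inside the gene. On chromosome 7 it ran from 4740252 to 4742338 (2087 bases) in deleted cells and from 4740310 to 4741724 (1415 bases) in control cells. The summit held 71 fragments in deleted cells (55.5 to 89.6) and 63 in control cells (48.4 to 80.6), a scaled pileup of 1.31 and 1.49. The ratio of 0.879 (0.617 to 1.25) did not depart from 1 beyond counting error. By fold enrichment it ranked 943 among deleted peaks (12.1) and 444 among control peaks (12.9). The wider deleted peak also touched a second control peak, from 4742130 to 4742441, with 21 fragments.
The annotated Kmt5c start itself lay in a gap between peaks, of 725 bases in deleted and 967 bases in control cells. On its far side was a lower peak from 4739179 to 4739526 in deleted cells (31 fragments) and from 4739058 to 4739342 in control cells (19 fragments), a scaled pileup of 0.572 and 0.449, a ratio of 1.27 (0.697 to 2.38). That peak lies within the lncRNA gene Gm42369, which starts at -47 bases from the Kmt5c start and is read in the opposite direction, so which gene it belongs to cannot be told apart.
Kmt5c also had the most list-only peaks of the 3 genes, 6 of 9 for deleted and 2 of 6 for control cells, against 50.6% of all deleted and 24.3% of all control peaks. With so few peaks these counts are a description only. Of the deleted-only peaks 4 lay in the gene body, with 23, 16, 20 and 23 fragments, and 2 after the gene, with 17 and 25. The control-only peaks, with 18 and 17 fragments, lay outside the gene body. The window also reached Cox6b2, a testis form of a cytochrome c oxidase subunit. A shared peak inside that gene had 35 fragments in deleted and 22 in control cells, a scaled pileup of 0.646 and 0.520, a ratio of 1.24 (0.708 to 2.22). The snRNA gene Gm24537 had no peak in either list, and the stretch of Fam71e2 inside the window had none.

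Kmt5a had the lowest gene-start level of the 3, though not below Kmt5c beyond counting error in deleted cells. Its peaks were spread over its 3 annotated starts. Just past the first start, on chromosome 5, a peak ran from 124439992 to 124440857 in deleted and from 124440027 to 124441108 in control cells, with 45 and 36 fragments (scaled pileup 0.830 and 0.852, ratio 0.975, interval 0.615 to 1.56). Before the second start a peak ran from 124444615 to 124445362 in deleted and from 124444774 to 124445368 in control cells, with 57 and 32 fragments (scaled pileup 1.05 and 0.757, ratio 1.39, interval 0.886 to 2.21). The strongest Kmt5a peak was therefore at the second start in deleted cells (fold enrichment 9.74, rank 2908) and at the first in control cells (7.40, rank 6489). Within each culture the counting intervals of the first-start and second-start peaks overlapped, so this order is a description only. They were 32.8 to 60.2 and 43.2 to 73.9 fragments in deleted cells, and 25.2 to 49.8 and 21.9 to 45.2 in control cells. The ratio at the second start did not depart from 1 beyond counting error. Of all peaks shared 1 to 1, 95.6% had a lower ratio, but this pair was singled out as the highest of the 10 shared peaks of the members.
Around the third start, 2 further peaks were shared. The one before it had 34 fragments in deleted and 26 in control cells (ratio 1.02, interval 0.594 to 1.77), and the one over it had 24 in each (0.780, interval 0.424 to 1.43). Further into the gene, shared peaks with deleted summits 6135 and 6867 bases past the third start had 17 and 21 fragments in deleted cells and 16 and 17 in control cells.
The deleted list alone had a peak before the first start, from 124438437 to 124438762 (24 fragments), and one in the body, from 124449272 to 124449794 (22 fragments). The control list alone had one from 124463492 to 124463687 (18 fragments), which lies in the body of the next gene, Rilpl2. That gene is read from the opposite strand and starts outside the window.

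**Figure D4:**
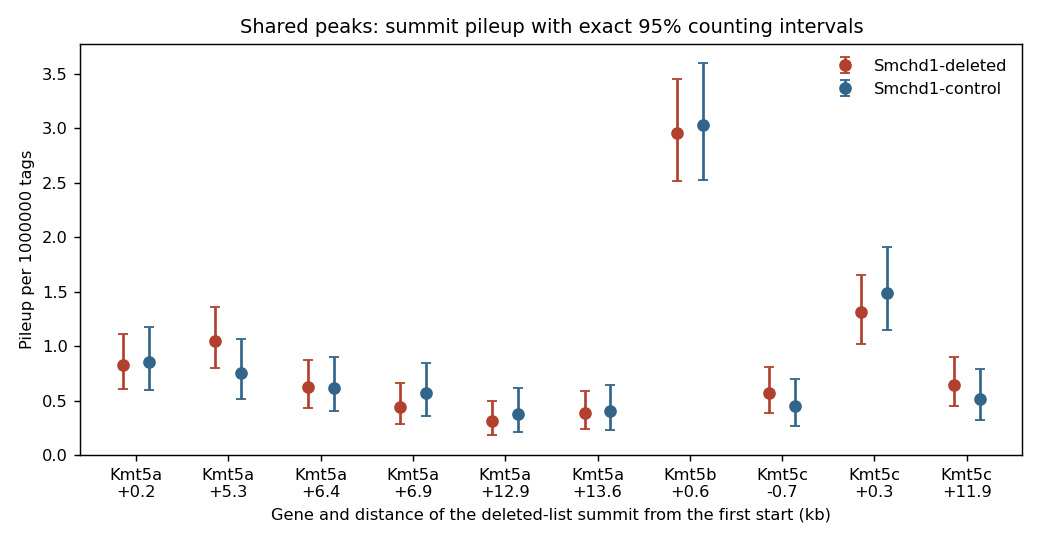
Summit pileup per 1000000 tags (y) of the 10 shared peaks of Kmt5a, Kmt5b and Kmt5c in deleted cells (red, left point of each pair) and control cells (blue, right point), with exact 95% Poisson intervals. The number under each gene is the distance in kb of the deleted summit from the first annotated start. The Kmt5b start peak (2.95 and 3.03) is above all others, and the intervals of every pair overlap.

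Set side by side, all 3 genes had a gene-start peak in both lists, as did 50.4% of all protein-coding genes, 43.2% having one in neither. In the body or the 10 kb around it, 64.4% of genes had a peak in both lists, 5.48% among deleted peaks alone, 0.869% among control peaks alone and 29.3% in neither. Pileup at a summit is a height at 1 point and needs no correction for gene length. The order was Kmt5b, Kmt5c, Kmt5a in both cultures, with Kmt5b 2.25 times as high as Kmt5c in deleted cells and 2.03 times in control cells. The first place of Kmt5b follows from how the genes were chosen, and is a description only. Kmt5c was 1.25 times as high as Kmt5a in deleted cells (0.867 to 1.80), which did not depart from 1 beyond counting error, and 1.75 times in control cells (1.14 to 2.71).
Of 6 annotated starts, 3 lay inside a peak in deleted cells and the same 3 in control cells: both Kmt5b starts and the third of Kmt5a. Over all annotated starts with a peak within 1 kb, 30.2% lay inside a deleted peak and 22.4% inside a control peak. The first and second Kmt5a starts and the Kmt5c start lay between peaks or beside one, with a gap of 583 bases in deleted and 722 bases in control cells around the second Kmt5a start. The starts of 1 gene share peaks and are not independent.

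The 3 genes held 9 deleted-only peaks of 19, or 47.4% (exact interval 24.4 to 71.1), against 50.6% of all deleted peaks. They held 3 control-only peaks of 14, or 21.4% (4.66 to 50.8), against 24.3% of all control peaks. Both shares were near those of the whole lists. The deleted-only peaks had 16 to 25 fragments, which scale to 12.5 to 19.5 at the control depth. All control peaks had a median of 20 fragments, and the weakest at the lowest local background had 12. The part of depth in the deleted-only peaks was not tested.
Of the 10 shared peaks, the scaled pileup in deleted over control cells ranged from 0.780 to 1.39 with a median of 0.975. The median over 35969 peaks shared 1 to 1 was 0.947. The Kmt5c start peak, which overlapped 2 control peaks and was set against the stronger one, is not of that class. None of the 10 differed by 1.5-fold or more, against 2.22% of all peaks shared 1 to 1 higher and 5.54% lower in deleted cells. No counting interval among the 10 missed the overall median, against 1.4% of those peaks.

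Related genes, which act on or with H4K20 methylation or encode other SET-domain methyltransferases, mostly carried start acetylation in both cultures. Of 61 genes in 6 lists, 54 had a gene-start peak in both lists (50.4% of all protein-coding genes), 2 among deleted peaks alone (background 5.5%), 0 among control peaks alone (0.892%) and 5 in neither. The median ratio of deleted to control scaled pileup was 1.03 over the 54 and 1.01 over the 10895 protein-coding genes with a gene-start peak in both lists. The strongest peak of a gene was at 1 common locus in 43 of the 54.
The genes listed as demethylases of H4K20 had such peaks in both lists at 5 of 5. This activity is not established for each of their proteins. The highest, here and in each other list by the mean scaled pileup of both libraries, were Rsbn1 (scaled pileup 1.59 in deleted and 1.30 in control cells) and Rsbn1l (1.49 and 1.51). The list of readers of methylated H4K20 had them at 9 of 10. It also holds genes, the next 2 among them, whose proteins are not established readers of this mark. Mphosph8, a chromodomain protein of heterochromatin silencing (1.05 and 1.63), and Msl1, a scaffold of the MSL acetyltransferase complex (1.38 and 1.28), had the highest means. The reader L3mbtl1 had a gene-start peak in neither list, though its body and the 10 kb around it held 3 deleted and 1 control peak. Proteins that recognise H4K20 before it is methylated, on new chromatin, and partners of these proteins had them at 4 of 4. Among these the highest means were at 2 partners, the repair gene Brca1 (1.55 and 1.87) and the replication fork gene Mms22l (1.22 and 0.899).
Genes tied to the turnover and control of Kmt5a had peaks in both lists at 8 of 10, led in mean by Ddb1 (1.40 and 1.54) and Dtl (1.09 and 1.02). Cul4b had a gene-start peak in neither list, and Usp29 had one among deleted peaks alone, with 17 fragments. Heterochromatin partners had them at 9 of 9, led in mean by Rbl1, a pocket protein related to the retinoblastoma protein (2.20 and 2.13), and Cbx3, which encodes HP1 gamma (2.05 and 1.75).
Other methyltransferases with a SET domain had them at 19 of 23. The H3K4 methyltransferases Kmt2d (2.51 and 2.65) and Setd1a (2.07 and 1.66) had the highest means. Smyd3 had a gene-start peak among deleted peaks alone (26 fragments), and Nsd1, Ezh1 and Setd5 had one in neither list. The bodies of Nsd1, Ezh1 and Setd5 and the 10 kb around them held 8, 10 and 9 deleted peaks and 4, 5 and 9 control peaks. Of the 54 genes, 1 was at least 1.5-fold higher in deleted cells (background 2.76%) and 1 at least 1.5-fold lower (2.11%). Kmt2b was higher, at 1.86 (1.23 to 2.86), but its strongest peaks in the 2 lists did not overlap. No annotated start was used for Kmt2b, Smyd3 or Nsd1, so either end of each of these genes counted as one. Mphosph8 was lower, at 0.644 (0.446 to 0.929), at 1 common peak. Both, and the 5 genes with a gene-start peak in neither list, were singled out after their values were seen.

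**Figure D5:**
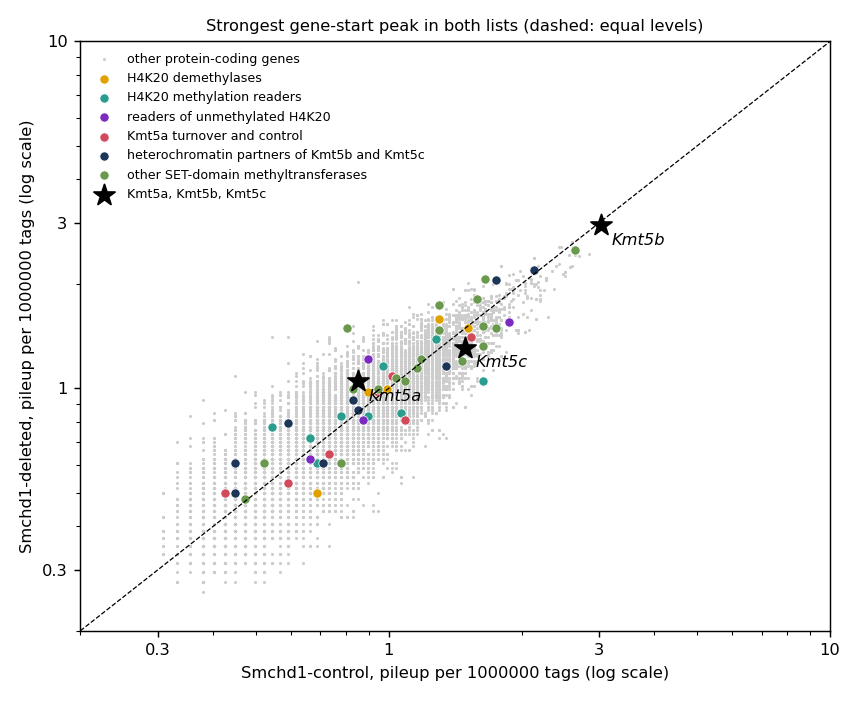
Summit pileup per 1000000 tags of the strongest gene-start peak in deleted cells (y) and control cells (x), both on log scales, for protein-coding genes with such a peak in both lists (grey), 6 lists of related genes (coloured) and the 3 H4K20 methyltransferase genes (stars). The dashed line marks equal levels. Kmt5b (2.95 and 3.03) is at the upper end of the cloud, and Kmt5a and Kmt5c are within it.

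The genes nearest to each member in gene-start scaled pileup were sought by distance on the log2 scale over the 2 libraries. For Kmt5b they were Slc4a1ap and Supt7l, which share a peak (scaled pileup 2.64 in deleted and 2.60 in control cells, distance 0.27), and Ccng2 (2.44 and 2.84, distance 0.29). For Kmt5c they were Commd2 and Sec16a, with the same pileups of 71 and 63 fragments. For Kmt5a, 8 genes tied with identical pileups of 57 and 36 fragments: Dpf2, Fbxo7, Pdcl, Pdlim5, Pi4kb, Tinf2, Vapa and Wdr43. The Kmt5a pair sets its second start in deleted cells against its first in control cells. Likeness over 2 libraries is a match of heights only.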

How the data were processed

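H3K27ac ChIP-seq peak lists of 1 Smchd1-deleted and 1 Smchd1-control culture were used, grouped by sample title. The submitters' processing notes name Bowtie 0.12.9 and the build mm10. Per the file headers, the authors ran MACS2 2.1.0.20140616 on either ChIP with the matching input as background and a q-value threshold of 0.05, with 1 tag kept per position and the larger library down-sampled. For each peak the authors deposited the pileup signal at the summit, -log10 p, -log10 q (p-value and q-value), the fold enrichment ratio over local input, which is not scaled between libraries, and the width.

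From these, pileups per 1000000 filtered tags, overlaps of at least 1 base, ranks, exact Poisson and binomial 95% intervals and the local background, (pileup + 1) / fold - 1, were computed with Python 3.11.15, pandas 2.3.3 and scipy 1.17.1 on chromosomes 1 to 19 and X, and checked on simulated data. Background within 2% of the lowest counted as lowest. Fragments were extended to 171 bases in deleted and 175 in control cells, which slightly raises control pileups at equal tag density. Gene bodies are RefSeq (GRCm38.p6, the mm10 chromosomes). Of 21631 protein-coding genes, 17274 had annotated starts in the promoter table, and for 4357 either gene end counted as a start. All genes tested share 1 pair of libraries. The members and lists were chosen with earlier results of these data known. Genes named are the members, their neighbours, the top 2 and list-only genes of each related list, and the 3 nearest in level, of which 1 is not reported here. Other windows, thresholds, overlaps and equal list lengths were tried.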

Additional observations from a re-analysis of the deposited data

How the results depend on the processing

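Of 40 alternative values, 28 kept within 1.5 times the main count or within the counting interval and 12 did not. Counting the gene body alone gave 9 control peaks in place of 14, 5 deleted-only peaks in place of 9 and 0 control-only peaks in place of 3. Peaks with -log10 q of at least 5 left 8 control peaks and 0 control-only peaks. Peaks with a fold enrichment of at least 5 left 7 deleted peaks in place of 19 and 5 control peaks, with 2 deleted-only and 0 control-only. With 50% reciprocal overlap there were 6 control-only peaks. Related genes with a gene-start peak in the deleted list only numbered 1 in place of 2 when a peak anywhere in the gene body counted, and 1 in lists of equal length. Divided by the median ratio of shared peaks, the gene-start ratios of Kmt5a, Kmt5b and Kmt5c were 1.30, 1.03 and 0.928, within their counting intervals, so for Kmt5b the side of 1 depends on the scaling. The Kmt5a value sets the second start in deleted cells against the first in control cells. No paired analysis was possible because each group has 1 library. In lists of equal length the 3 genes held 6 deleted-only of 15 deleted peaks and 4 control-only of 14 control peaks. All list-only peaks of the 3 genes had 25 fragments or fewer, and the part of depth was not tested.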

Other observations

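The related lists held 3 X-linked genes, set apart here after their values were seen. Phf8, a histone demethylase, had 27 fragments at its start in deleted and 29 in control cells, a ratio of scaled pileups of 0.726 (0.414 to 1.27). Suv39h1, an H3K9 methyltransferase, had 33 in deleted and 19 in control cells, a ratio of 1.35 (0.748 to 2.52). Cul4b, a ubiquitin ligase scaffold, had no gene-start peak in either list, though its body and the 10 kb around it held 4 peaks in deleted and 3 in control cells. Neither ratio departed from 1 beyond counting error.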
